A study of Homo sapiens with 9 samples.

Results

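The genes described here are the 7 members of the LIN28, IGF2BP and HMGA families: LIN28A, LIN28B, IGF2BP1, IGF2BP2, IGF2BP3, HMGA1 and HMGA2. They were chosen by name, and each symbol was matched to 1 Ensembl identifier among the 57338 genes of the deposited table. Their transcripts were measured in cells that the paper gives as HEK293T, an embryonic kidney line that carries a viral large T antigen. Per the paper, the cells received a plasmid that encodes EGFP (empty vector), EGFP with human protamine 1 (hPRM1) or EGFP with human protamine 2 (hPRM2). Live cells with high EGFP were sorted 3 days later. Each group had 3 libraries made from the 3′ ends of polyadenylated RNA. Expression was therefore transient and measured at a single time, and protamines are normally made in developing sperm. The labels do not say whether the 3 replicates of a group came from separate cultures, so the p-values measure the spread between these libraries, which may be technical.

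Some facts of the whole table bear on every value below. The estimated reads on genes were 7930000 to 10790000 for the empty vector, 4210000 to 5860000 for hPRM1 and 1270000 to 2650000 for hPRM2, so hPRM2 values have the largest counting error. PRM1 was listed at 0 in all 9 libraries, including the 3 labelled hPRM1, whereas PRM2 reached 36130 to 71224 RPKM in hPRM2 and was listed at 0 in the other 6. The libraries labelled hPRM1 had summed levels of 12 haemoglobin and red cell markers of 2062896 to 2269167 RPKM, against 24.0 to 80.7 RPKM in the other 6 libraries, with 11 or 12 of the 12 markers above 0. All 12 lymphocyte markers were also above 0 there, with sums of 960 to 1236 RPKM against at most 0.406 RPKM elsewhere. Neutrophil and monocyte markers summed to 6546 to 7619 RPKM there against at most 20.7 RPKM, with 11 of 12 above 0, and 6 platelet markers to 336 to 595 RPKM against at most 32.1 RPKM. The 12 HEK293T markers summed to 159 to 219 RPKM in these libraries and to 853 to 1238 RPKM in the others, and NEFM, PAX2, EYA1, INA and NEFL were at 0 in all 3. Since PRM1 was at 0 and the defining HEK293T markers were low or at 0, they are called the libraries labelled hPRM1 throughout. Their library numbers also form a run apart from that of the other 6, so library series and condition cannot be told apart. Among the hPRM2 libraries, replicate 1 stood apart with 9652 genes above 0 despite the most reads, against 14353 and 15633 genes in replicates 2 and 3.

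**Figure D1:**
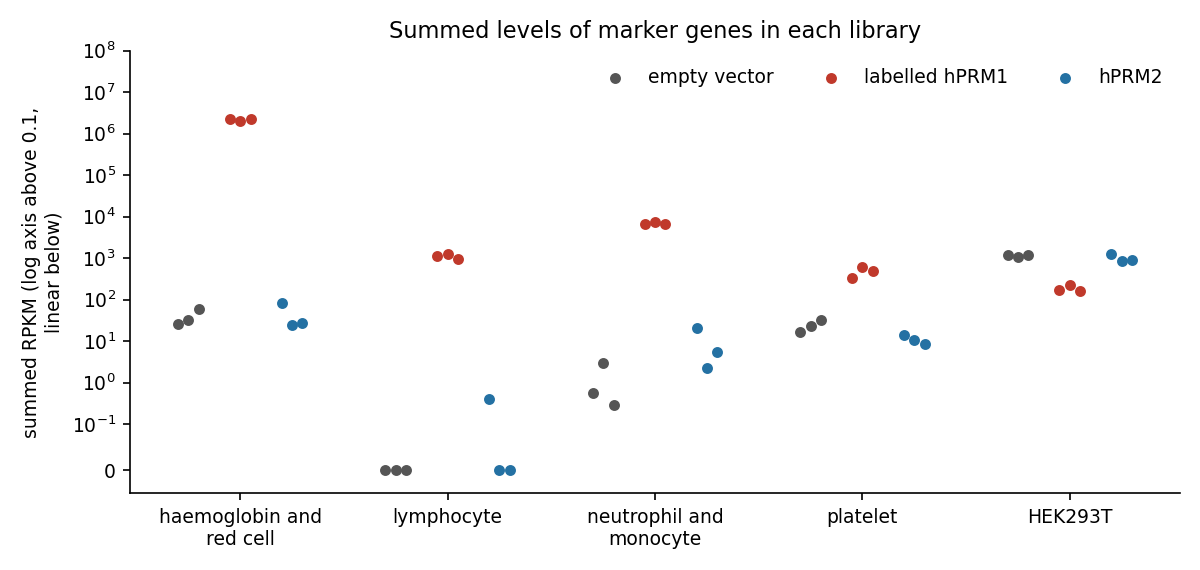
Summed RPKM of 5 lists of cell type markers in each of the 9 libraries (points; vertical axis logarithmic above 0.1 and linear below). The 3 libraries labelled hPRM1 lie above the other 6 for the 4 blood lists and below them for the HEK293T list.

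The 7 proteins are called oncofetal because they are abundant in embryonic and fetal tissue, are lower in most adult tissue and return in many tumours, although IGF2BP2 is also made in many adult cells. LIN28A and LIN28B bind the precursors of the let-7 microRNAs and block their maturation. IGF2BP1, IGF2BP2 and IGF2BP3 bind mRNAs, including those with N6-methyladenosine, and are known to stabilise them and to guide their transport. HMGA1 and HMGA2 are small chromatin proteins that bind the minor groove of AT-rich DNA through AT-hooks. The families are linked because mature let-7 represses transcripts of all 3 through sites in their 3′ untranslated regions (UTRs).

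Those sites are shown as a sequence feature of the members. Of the members, 5 are in the list of let-7 targets used below, so matches in them are not an independent result. The mature let-7 microRNAs of RefSeq (GRCh38.p14) have 9 names on the 5p arm, and all 9 share 1 seed. The let-7a, let-7g and miR-98 sequences below have that seed, bases 2 to 8, in capitals.
let-7a: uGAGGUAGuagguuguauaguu
let-7g: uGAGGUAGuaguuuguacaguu
miR-98: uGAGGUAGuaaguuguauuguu

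The reverse complement of this seed, CTACCTC in DNA letters, was searched on the sense strand of the 3′ UTR of the principal transcript in GENCODE 29 (GRCh38). It was found in 7 of 7 members and in 1658 of 18786 genes with a 3′ UTR of at least 30 bases (8.83%). HMGA2, LIN28B and IGF2BP1 held 4 matches each, and LIN28A, IGF2BP2, IGF2BP3 and HMGA1 held 1 each. Longer UTRs hold more matches, so each was read against genes whose UTR was 0.8 to 1.25 times as long, the member itself included. Of those, 0.0983% had at least 4 matches for HMGA2 (UTR of 3003 bases), 0.232% for LIN28B (4549 bases) and 0.554% for IGF2BP1 (6206 bases). For the members with a single match, the share of such genes with any match was 17.0% for LIN28A, 12.1% for IGF2BP2, 12.2% for IGF2BP3 and 8.67% for HMGA1. The first match of each member after its stop codon is printed with its flanks, the match in capitals, all on the transcript's strand.
LIN28A, chr1:26427348-26427371, plus strand: gcacagcctattgaaCTACCTCat
LIN28B, chr6:105078812-105078835, plus strand: acccggttgcaaagtCTACCTCat
IGF2BP1, chr17:49051061-49051084, plus strand: tgtgtgcgaagtaaaCTACCTCaa
IGF2BP2, chr3:185644219-185644242, minus strand: aacacacagaagaagCTACCTCag
IGF2BP3, chr7:23311794-23311817, minus strand: tgcatttttactcaaCTACCTCag
HMGA1, chr6:34245829-34245852, plus strand: tcctctgttcacaaaCTACCTCtg
HMGA2, chr12:65963298-65963321, plus strand: gccaacgttcgatttCTACCTCag

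A match describes letters and is not a measured site. The let-7 microRNAs themselves were not measured by these libraries: 10 let-7 precursor genes were listed at 0 in every library, which says nothing of mature let-7, since it carries no poly(A) tail. Of the long host transcripts, MIRLET7BHG was at 1.40, 2.98 and 1.79 RPKM in the empty vector, at 1.90, 2.81 and 1.82 RPKM in the libraries labelled hPRM1 and at 6.86, 18.7 and 17.3 RPKM in hPRM2. MIRLET7A1HG was at 0.852, 2.86 and 0 RPKM in the empty vector, at 0, 0.601 and 1.13 RPKM in the libraries labelled hPRM1 and at 0, 17.2 and 18.9 RPKM in hPRM2. The hPRM2 levels of MIRLET7BHG lay above all others, while those of MIRLET7A1HG did so in 2 of 3 libraries, and the host transcripts were named after their values were seen. The third, MIRLET7IHG, was at 0.314, 0.319 and 0 RPKM in the empty vector, at 0.182, 0.394 and 0.249 RPKM in the libraries labelled hPRM1 and at 0, 0 and 0.295 RPKM in hPRM2, which overlap. LIN28 proteins also recognise a GGAG motif in the loop of let-7 precursors. That motif occurred anywhere in 9 of 12 let-7 family hairpins (75.0%) and in 678 of all 1562 hairpins in the RefSeq table (43.4%).

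In the empty vector, 6 of the 7 members were expressed. RPKM divides reads by gene length although reads of this kit come from transcript ends, so levels of long genes read low and the order of levels is given on that scale. HMGA1 (ENSG00000137309, chr6:34236873-34246231) was highest, at 320.3, 297 and 503 RPKM, which is 373 ± 112 RPKM (SD, n = 3), and 97.3% of genes above 0 had a mean level up to this one. IGF2BP2 (ENSG00000073792, chr3:185643739-185825056) followed at 45.7, 41.4 and 18.9 RPKM. HMGA2 (ENSG00000149948, chr12:65824131-65966295) was at 24.0, 23.1 and 29.1 RPKM. The levels of IGF2BP2 and HMGA2 overlapped, and those of IGF2BP2 spread 2.42 fold between replicates against 1.26 fold for HMGA2.

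IGF2BP1 (ENSG00000159217, chr17:48997412-49055650) was at 22.5, 24.4 and 17.3 RPKM. LIN28B (ENSG00000187772, chr6:104936616-105083332) was at 16.4, 19.4 and 15.9 RPKM. IGF2BP3 (ENSG00000136231, chr7:23310209-23470467) was at 14.99, 19.3 and 15.6 RPKM. These 3 overlapped with each other, with means of 21.4, 17.2 and 16.6 RPKM. All 3 also overlapped with IGF2BP2, whose lowest library was at 18.9 RPKM, and IGF2BP1 overlapped with HMGA2. The order within these overlapping genes is not resolved beyond the spread of the replicates. LIN28A (ENSG00000131914, chr1:26410778-26429722) was listed at 0 in all 3 libraries, where 3 reads would give 0.0740 to 0.101 RPKM. The LIN28 family was thus represented by LIN28B at this depth.

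**Figure D2:**
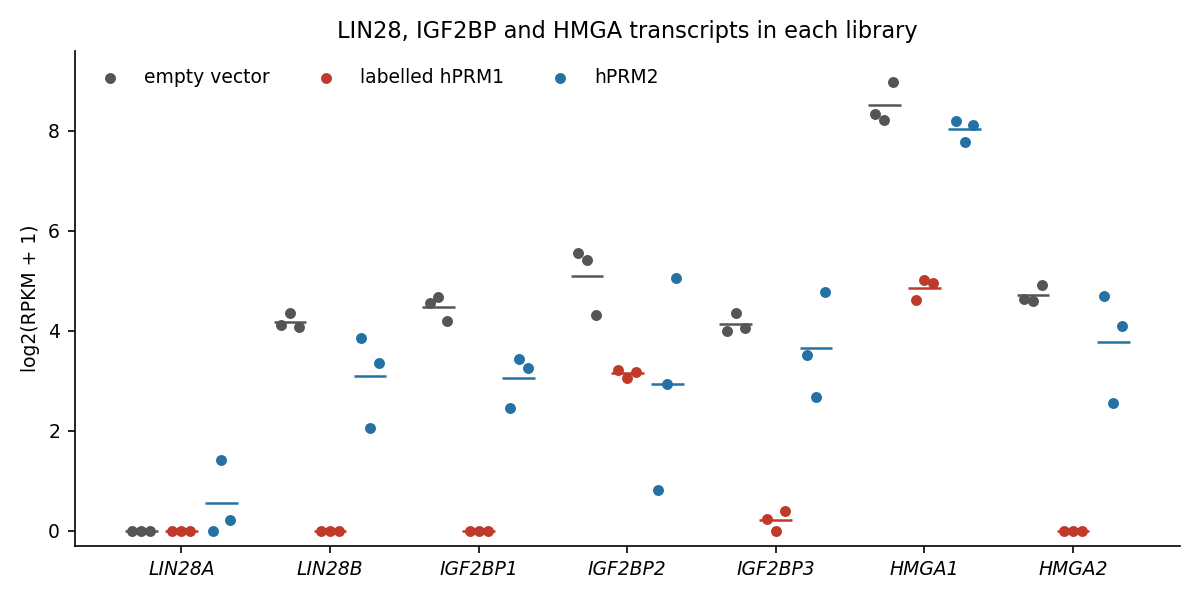
Level of each member in each library on the log2(RPKM + 1) scale (points, bars at the mean of 3). In the libraries labelled hPRM1, 4 members are at 0 in all libraries, IGF2BP3 is near 0, and IGF2BP2 and HMGA1 are the members clearly above 0.

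The comparison of hPRM2 with the empty vector asks whether the second protamine changed these transcripts, and none of the 6 members tested passed the test. Genes were called when limma gave an adjusted p of at most 0.05 (Benjamini-Hochberg over all genes tested) together with a fold change of 2 or more on log2(RPKM + 1), a scale that understates the change of low genes. Across the whole table, 2.74% of 13126 genes were called in this comparison, 1.37% as lower and 1.36% as higher. That balance of 180 lower and 179 higher genes depended on the scaling, with 82 and 220 after median-of-ratios rescaling and 70 and 342 after quantile normalization. Of the members, 1 had an unadjusted p under 0.05, IGF2BP1, as did 3351 of all genes tested, and the study's per-gene test also called 0 members. The median log2 fold change over all genes was −0.72, so the levels of most genes were lower in hPRM2 on this scale. Of the HEK293T markers, KRT8 alone was called, at 179 RPKM in hPRM2 against 21.4 RPKM in the empty vector. In bulk RNA, fewer cells of a kind and less of a transcript per cell cannot be told apart.

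IGF2BP1, which protects MYC mRNA from decay among other targets, was at 4.49, 9.74 and 8.52 RPKM in hPRM2. All 3 values lay below the lowest empty vector library, at 17.3 RPKM. The log2 fold change was −1.43 (SE 0.51, 95% interval −2.62 to −0.23, adjusted p = 0.149 by limma). When all 9 libraries shared 1 estimate of the spread, the same value had an adjusted p of 0.0453 by limma, so its call depends on which libraries enter the fit. The 3 libraries added there were those labelled hPRM1, which brought no spread for IGF2BP1, at 0 RPKM with an SD of 0. Over the other alternatives tried, its adjusted p was 0.0665 to 0.462.

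LIN28B, which blocks let-7 maturation, was at 13.6, 3.14 and 9.23 RPKM in hPRM2. The groups did not overlap, with the highest hPRM2 value below the lowest empty vector value of 15.9 RPKM. Its log2 fold change was −1.09 (SE 0.61, adjusted p = 0.296 by limma). HMGA1 was at 293, 218 and 277 RPKM, all below the 297 RPKM of the lowest empty vector library. Its log2 fold change of −0.48 (SE 0.32, adjusted p = 0.362 by limma) had an interval of −1.22 to 0.27, which reaches past a 2-fold fall, and the sign turned to 0.083 under median-of-ratios rescaling. These 3 members without overlap compare with 35.9% of all genes tested whose groups did not overlap, 29.9% with hPRM2 below.

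HMGA2, the fetal chromatin factor, was at 24.8, 4.88 and 16.0 RPKM in hPRM2, with replicate 1 inside the range of the empty vector and replicates 2 and 3 below it. Its log2 fold change was −0.93 (SE 0.63, adjusted p = 0.371 by limma). IGF2BP3 was at 10.4, 5.34 and 26.4 RPKM, on both sides of the empty vector values. Its log2 fold change was −0.48 (SE 0.64, adjusted p = 0.640 by limma), and the sign turned to 0.034 and 0.062 under median-of-ratios rescaling and quantile normalization. IGF2BP2 was at 0.768, 6.62 and 32.1 RPKM, a 41.8-fold spread within 1 group that rested on 7, 29 and 177 estimated reads. That spread gave a log2 fold change of −2.15 with an interval of −4.64 to 0.33 (SE 1.05, adjusted p = 0.246 by limma), the widest of the 6. Replicate 2 was the lowest hPRM2 library for LIN28B, IGF2BP3, HMGA1 and HMGA2, and replicate 1 for IGF2BP1 and IGF2BP2.

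LIN28A was above 0 in 2 of the 9 libraries, both of hPRM2. It was listed at 0, 1.67 and 0.165 RPKM, the latter 2 from 8 and 1 estimated reads. At this depth 3 reads give 0.301 to 0.627 RPKM in hPRM2, so only replicate 2 exceeded what a count of 0 allows. LIN28A did not reach 1 RPKM in 3 libraries of any comparison and was not tested. Without hPRM2 replicate 1, the library with few genes above 0, still no member was called. The log2 fold changes were then −1.48 for LIN28B, −1.13 for IGF2BP1, −1.10 for IGF2BP2, −0.41 for IGF2BP3, −0.56 for HMGA1 and −1.39 for HMGA2, with adjusted p-values of 0.0665 to 0.648 by limma. Without hPRM2 replicate 2, in which LIN28B and HMGA2 were lowest, they moved the other way, to −0.57 for LIN28B, −0.32 for HMGA2, −0.35 for HMGA1 and 0.0080 for IGF2BP3. Without replicate 3, in which IGF2BP3 was highest, its value was −1.05. The number of genes called in the whole table rose from 359 to 2429 without hPRM2 replicate 1, and fell to 27 and 84 without replicates 2 and 3.

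**Figure D3:**
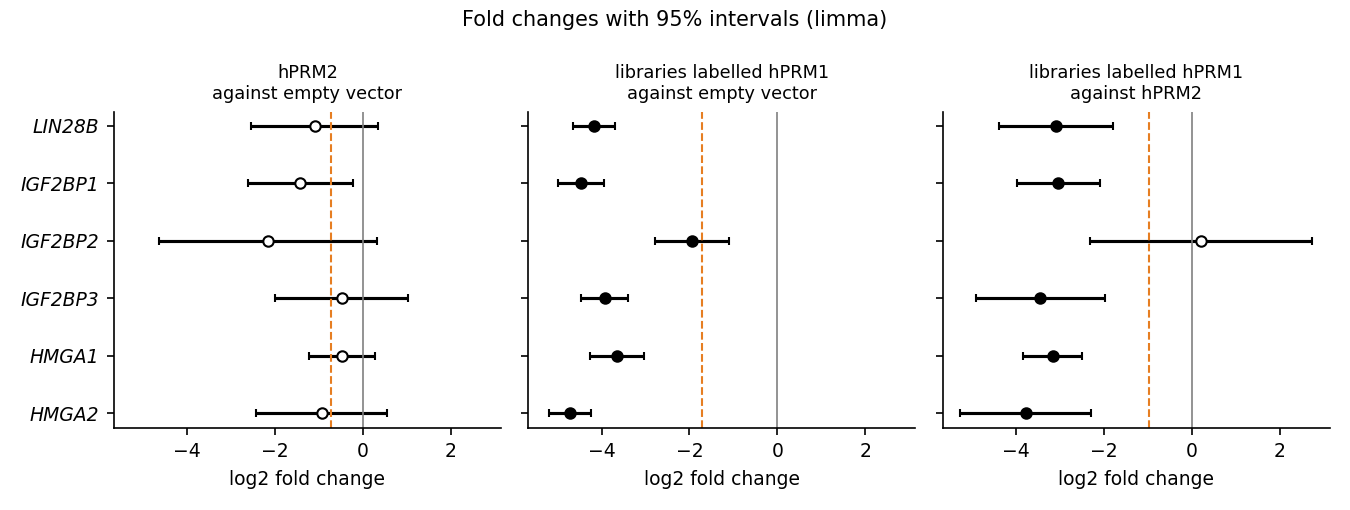
Log2 fold change of the 6 tested members with 95% intervals from limma in each comparison; filled points passed the test, and the dashed line is the median of all genes tested. In hPRM2 against the empty vector, 5 of the 6 intervals include 0, and in both comparisons of the libraries labelled hPRM1 all members but IGF2BP2 lie far left of the median.

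Against the empty vector, 6 of 6 tested members passed the test as lower in the libraries labelled hPRM1. This count is read against the background, in which 75.4% of 13588 genes were called, 62.5% as lower and 12.9% as higher. The groups did not overlap for 6 of 6 members and for 80.8% of all genes, 66.4% with the libraries labelled hPRM1 below. LIN28B, IGF2BP1, IGF2BP3 and HMGA2 were under 1 RPKM in every library labelled hPRM1. The filter let them enter only because all 3 empty vector libraries reached 1 RPKM, so their lack of overlap was fixed in advance. The share of all genes includes genes of the same kind. The median log2 fold change of all genes was −1.72. Median-of-ratios rescaling moved that median to −0.12 and the calls from 8491 lower and 1750 higher to 3925 lower and 3919 higher, and quantile normalization gave 4388 and 3475. Blood markers were present and HEK293T markers low or at 0 in these same libraries, as given above, and their part in the values below was not tested.

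LIN28B, IGF2BP1 and HMGA2 were at 0 in all 3 libraries labelled hPRM1. Against the mean level that 3 reads per library would give, their empty vector levels were at least 151-fold higher for LIN28B, 286-fold for IGF2BP1 and 179-fold for HMGA2. These limits cover counting error only, assume the length of the principal transcript and hold on the deposited RPKM scale alone. The fitted log2 fold changes, which depend on the pseudocount, were −4.18 (SE 0.20, adjusted p = 6.52e-06) for LIN28B, −4.47 (SE 0.22, adjusted p = 6.92e-06) for IGF2BP1 and −4.71 (SE 0.20, adjusted p = 4.75e-06) for HMGA2 by limma. Median-of-ratios rescaling moved these to −3.14, −3.41 and −3.64. IGF2BP3, which shares with IGF2BP1 a strong restriction to fetal tissue, was at 0.171, 0 and 0.306 RPKM, from at most 6.4 estimated reads. The fit gave a log2 fold change of −3.93 (SE 0.22, adjusted p = 1.15e-05).

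HMGA1 remained detected in every library labelled hPRM1, at 23.4, 31.5 and 30.002 RPKM. That is 28.3 ± 4.30 RPKM (SD, n = 3) and 13.2 times below the empty vector mean, with a log2 fold change of −3.65 (SE 0.25, adjusted p = 2.51e-05 by limma). IGF2BP2 was at 8.32, 7.31 and 8.01 RPKM, the narrowest spread of any member in a group with all 3 libraries above 0, at 1.14 fold. Its log2 fold change was −1.94 (SE 0.35, adjusted p = 0.00195 by limma), and its percentile among the fold changes of all genes tested was 44.7. On the rescaled values, IGF2BP2 was at 24.3, 17.2 and 22.7 in the libraries labelled hPRM1 against 21.6, 18.8 and 9.23 in the empty vector, which overlap. Its log2 fold change was then 0.11 (adjusted p = 0.787), whereas the other 5 members kept their sign and their call under that rescaling and under quantile normalization. HMGA1 on the rescaled values was at 68.4, 74.0 and 85.1 against 152, 135 and 245, still without overlap.

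The IGF2BP family therefore differed in composition. IGF2BP2 made up 54.9%, 48.6% and 36.5% of the summed RPKM of the 3 genes in the empty vector, and IGF2BP1 27.0%, 28.7% and 33.3%. In the libraries labelled hPRM1, IGF2BP2 made up 98.0%, 100% and 96.3%. In hPRM2 the IGF2BP2 share was 4.91%, 30.5% and 47.9%, and IGF2BP3 held 66.4%, 24.6% and 39.4%. Shares within a library do not depend on how libraries are scaled. The hPRM2 shares crossed the empty vector range, whereas those of the libraries labelled hPRM1 lay above both other groups.

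**Figure D4:**
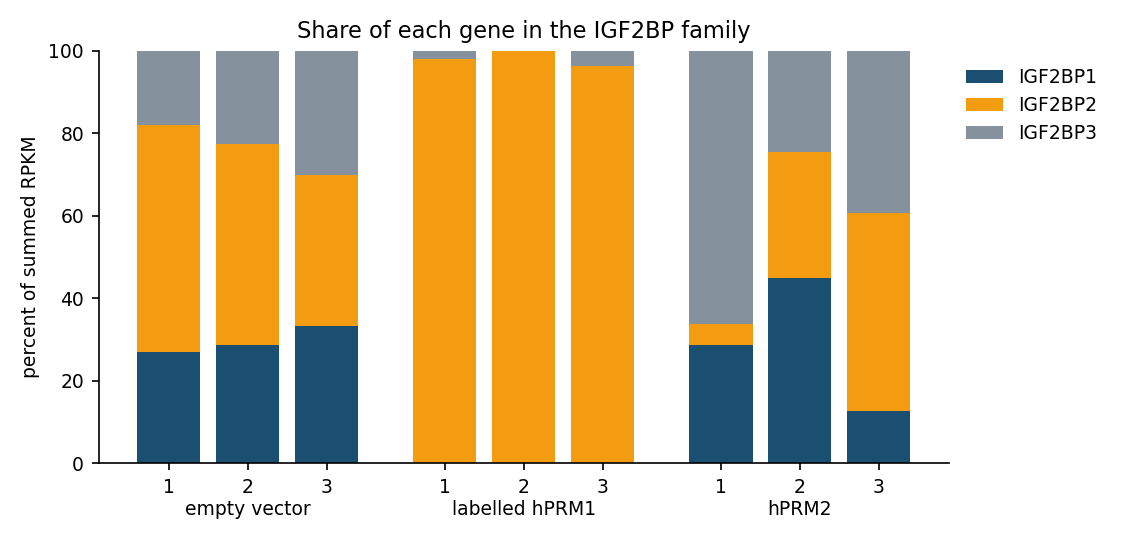
Share of IGF2BP1, IGF2BP2 and IGF2BP3 in the summed RPKM of the family in each of the 9 libraries (replicate number and group on the horizontal axis, percent on the vertical axis). IGF2BP2 fills 96.3% to 100% of the bar in the libraries labelled hPRM1 and 4.91% to 47.9% in hPRM2.

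The libraries labelled hPRM1 were also compared with hPRM2, which is the other protamine label. Of 6 tested members, 5 were lower in the libraries labelled hPRM1, where 53% of 11756 genes were called, 37% as lower and 16% as higher, with a median of −0.97. Median-of-ratios rescaling turned these 4355 lower and 1879 higher genes into 2148 and 3662, and quantile normalization into 3104 and 2897. These 5 did not overlap between the groups, as did 62% of all genes, 43.1% with the libraries labelled hPRM1 below. For LIN28B, IGF2BP1, IGF2BP3 and HMGA2 this was again fixed in advance, since they entered only because all 3 hPRM2 libraries reached 1 RPKM. The log2 fold changes were −3.09 for LIN28B, −3.04 for IGF2BP1, −3.45 for IGF2BP3, −3.17 for HMGA1 and −3.78 for HMGA2, with adjusted p-values of 0.000302 to 0.00396 by limma. The 3 members at 0 were at least 75.8-fold (LIN28B), 102-fold (IGF2BP1) and 107-fold (HMGA2) higher in hPRM2 than the limit of 3 reads. These limits too hold on the deposited RPKM scale alone. IGF2BP2 had a log2 fold change of 0.22 with an interval of −2.31 to 2.74 (adjusted p = 0.879 by limma). Its sign turned to −0.84 without hPRM2 replicate 1, so its direction in this pair is not resolved. The calls of the other 5 members did not change when any single library was left out, but the study's per-gene test called 0 of them, with adjusted p-values of 0.0977 to 0.307. Each pair of comparisons shares a group of libraries, so they are given side by side and not as independent results.

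The partners and targets of the members are given next, from lists written with earlier results known. In hPRM2, 0 of 18 tested genes of let-7 processing and LIN28 partners, 0 of 26 let-7 targets, 0 of 22 N6-methyladenosine writers, erasers and readers, 0 of 14 IGF2BP target mRNAs, 0 of 7 oncofetal and imprinted genes, 0 of 16 HMGA partners and 0 of 5 fetal globin control genes were called by limma, and 0 by the per-gene test. Their numbers with an unadjusted p under 0.05 were 2, 3, 1, 2, 0, 5 and 2. Their median log2 fold changes were −0.85, −0.89, −0.56, −0.999, −0.56, −0.67 and −1.07, beside the −0.72 of all genes. The let-7 targets include 5 members and the IGF2BP targets 2. Without these members, 0 of 21 and 0 of 12 genes were called, with medians of −0.83 and −0.97.

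Against the empty vector, genes of let-7 processing and LIN28 partners had 8 of 18 lower and 1 higher in the libraries labelled hPRM1, with a median of −0.83. Over all genes, 62.5% were lower and 12.9% higher with a median of −1.72, and the counts of this and the next lists are read against those shares. The counts, medians and levels of these lists are on the deposited RPKM scale. Median-of-ratios rescaling moved the median of all genes to −0.12, and rescaled values of the list genes are not given here. Genes under 1 RPKM in every library labelled hPRM1 entered the test only through their empty vector levels. The largest falls on log2(RPKM + 1) were those of MSI1, an RNA-binding protein that works with LIN28 on let-7 precursors in neural stem cells, from 25.2 RPKM to 0, of DHX9, an RNA helicase, from 169 to 14.5 RPKM, and of KHSRP, which promotes let-7 maturation, from 745 to 81.2 RPKM. The 1 that rose was TRIM25, a cofactor of LIN28A, from 9.21 to 20.1 RPKM. DICER1, the nuclease that cuts the precursors, was not called, with means of 10.1 RPKM (SD 1.30) in the empty vector and 15.2 RPKM (SD 4.76) in these libraries, and both TRIM25 and DICER1 were picked after their values were seen. Of the let-7 targets, 5 are members themselves. Among the other 21, 17 were lower and 1 was higher, with a median of −1.76. CDC25A, a phosphatase that drives the cell cycle, fell from 68.5 to 0.0540 RPKM, and RRM2, a subunit of ribonucleotide reductase, from 40.6 to 0.342 RPKM.

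Of the N6-methyladenosine genes, 19 of 22 were lower and 0 higher, with a median of −2.24, beside 62.5% lower and −1.72 for all genes. MATR3, a nuclear matrix protein that binds RNA, fell from 94.6 to 4.24 RPKM, the nuclear protein HNRNPC from 757 to 41.4 RPKM and YTHDF2, a reader that promotes decay where IGF2BP proteins stabilise, from 129 to 9.06 RPKM. IGF2BP target mRNAs other than members had 7 of 12 genes lower and 2 higher, with a median of −1.71, near the shares and the median of all genes. MKI67, a proliferation marker, fell from 86.6 to 0.251 RPKM. The 2 that rose were ACTB, whose mRNA IGF2BP1 carries in neurons and fibroblasts, from 1099.6 to 2345 RPKM, and the adhesion receptor CD44, from 10.9 to 79.1 RPKM, both named after their values were seen. Oncofetal and imprinted genes had 6 of 7 tested genes lower. The list holds 19 genes, 15 of them above 0 in these libraries, so most of it was not tested. GPC3, IGF2 and TPBG could enter the test only through their empty vector levels. GPC3, a fetal liver glypican, fell from 6.63 RPKM to 0, IGF2, the growth factor after which the IGF2BP family is named, from 4.59 to 0.124 RPKM, and TPBG, the trophoblast glycoprotein, from 4.09 RPKM to 0.

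The HMGA partners had 12 of 16 genes lower and 0 higher, with a median of −2.90, beside 62.5% lower and 12.9% higher over all genes. JUN, a subunit of the AP-1 transcription factor, fell from 304 to 3.07 RPKM, CCNB2 (cyclin B2) from 68.0 to 0.0977 RPKM and CCNA2 (cyclin A2), which HMGA2 is known to induce, from 36.1 to 0.0250 RPKM. The list of genes of the switch between fetal and adult globins, in which LIN28B acts as a fetal factor, had 2 of 10 lower and 4 higher, with a median of 0.85. It includes HBG1 and HBG2, which are globins and not genes that control them. HBG1 and HBG2, the fetal gamma globins, were at 374 ± 235 and 237 ± 134 RPKM (SD, n = 3) against 0 in the empty vector. These 2 genes are nearly identical, so reads may be split between them, and they moved together with the haemoglobin markers. KLF1, an erythroid factor, was at 5.89 ± 1.24 RPKM (SD, n = 3) against 0. In the same 3 libraries LIN28B was at 0, and the haemoglobin and red cell markers summed to 2062896 to 2269167 RPKM. A link between LIN28B and these globin levels was not tested.

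Against hPRM2, genes lower in the libraries labelled hPRM1 were 8 of 18 (let-7 processing), 8 of 18 (let-7 targets without the members) and 14 of 22 (N6-methyladenosine). They were 4 of 10 (IGF2BP targets without the members), 1 of 4 (oncofetal and imprinted) and 9 of 15 (HMGA partners) in the other lists. Higher were 2, 1, 0, 2, 0 and 1 genes. Over all genes 37% were lower and 16% higher, so the counts of these lists are read against those shares. They too are on the deposited RPKM scale, and median-of-ratios rescaling moved the median of all genes from −0.97 to 0.49. Examples are DHX9, from 245 to 14.5 RPKM, RRM2, from 54.9 to 0.342 RPKM, HNRNPC, from 668 to 41.4 RPKM, MKI67, from 56.3 to 0.251 RPKM, GPC3, from 4.96 RPKM to 0, and JUN, from 355 to 3.07 RPKM. Of the globin control list, which includes HBG1 and HBG2, 6 of 8 genes were higher and 1 was lower.

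Near relatives of the members can share reads with them. Of 13 pseudogenes and antisense genes of members in the table, 11 were at 0 in every library. HMGA1P4, an HMGA1 pseudogene, was at 2.03 RPKM and HMGA2-AS1, antisense to HMGA2, at 0.0781 RPKM, each in replicate 1 of the libraries labelled hPRM1 alone. HMGA2 was at 0 in that library, and HMGA1 at 23.4 RPKM.

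Over the 9 libraries, the levels of the members other than IGF2BP2 followed each other. Pearson's r on log2(RPKM + 1) was 0.922 to 0.995 between LIN28B, IGF2BP1, IGF2BP3, HMGA1 and HMGA2, the last value for LIN28B and HMGA2, and 0.318 to 0.541 between IGF2BP2 and each of them. These are descriptions without a test, since the 9 points fall into 3 groups and the libraries labelled hPRM1 set most of the range. Among 14731 genes, the 3 with the highest r to LIN28B were FERMT2, CERS6 and TSPAN13, at 0.998, 0.997 and 0.997. For IGF2BP1 they were KLHL23, MCM6 and RBFOX2, for IGF2BP3 DSCR8, TTK and NIPSNAP1, for HMGA1 RPS3, TUBB and NDUFA11, and for HMGA2 SLC25A1, ZDHHC9 and NCKAP1, with r of 0.989 to 0.998. For IGF2BP2 they were FXR2, TOB1 and SNAP29, with r of 0.976 to 0.984.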

How the data were processed

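RNA of 9 libraries (3 groups of 3), given by the paper as HEK293T cells, was read from 1 deposited table. Per the paper and the submitters' processing notes, reads were handled with FastQC, Cutadapt, STAR and Salmon (build hg38), mitochondrial genes were removed, and the authors divided each gene's count by the reads of the library and the gene length to give RPKM. No counts, annotation release or tool versions are given in the sources used here. The table holds 57338 genes, 33786 of them at 0 in all libraries. Symbols were found for 98.6% of identifiers.

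Reads on genes were estimated from the smallest steps of genes with 1 transcript of 600 to 20000 bases in GENCODE 29, with 250 bases subtracted. Of 46 member values above 0, 18 came out as whole reads within 0.01, so counts were not tested. For a value of 0, up to 3 reads were allowed.

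Groups were compared pairwise with limma 3.58.1 (R 4.3.3; lmFit, eBayes with trend and robust) on log2(RPKM + 1), over genes with at least 1 RPKM in at least 3 of the 6 libraries. A call needed an adjusted p of at most 0.05 (Benjamini-Hochberg over all genes tested) and a 2-fold change. The fit was tested on simulated data. Other values came from Python 3.11.15, pandas 2.3.3 and numpy 2.4.6, and figures from matplotlib 3.10.9. Alternatives used a pseudocount of 0.1 or 5, the filter left out or set to 10 RPKM, 2 rescalings, all 9 libraries in 1 fit, the replicate number as a block, no fold threshold, the study's per-gene test, and leaving out each library, which kept the genes of the whole comparison. Named are the members, their pseudogenes and antisense genes above 0, PRM1 and PRM2, up to 3 called genes with the largest change per list and comparison, and the 3 genes most like each member, beside others said to be chosen after their values were seen. The members and lists were chosen with earlier results of these data known.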

Additional observations from a re-analysis of the deposited data

How the results depend on the processing

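The values of hPRM2 rest on the fewest reads. The number of members called stayed at 0 for hPRM2, except for 1 (IGF2BP1) in the fit of all 9 libraries. It was 4 to 6 for the libraries labelled hPRM1 against the empty vector. Against hPRM2 it was 5, but 1 with a minimum of 10 RPKM, where only HMGA1 was tested, and 0 with the study's per-gene test. Leaving out a library gave 0, 6 and 5 in every case. Reversed signs were found for IGF2BP3 in hPRM2 (0.034 with median-of-ratios rescaling, 0.062 with quantile normalization, and −1.05 to 0.0080 over the libraries left out, with the reversal without hPRM2 replicate 2), HMGA1 in hPRM2 (0.083 with median-of-ratios rescaling), IGF2BP2 in the libraries labelled hPRM1 against the empty vector (0.11 with that rescaling) and IGF2BP2 against hPRM2 (−0.074 with pseudocount 5, −0.67 in the per-gene test, and −0.84 to 1.27 over the libraries left out, with the reversal without hPRM2 replicate 1). The cause was not tested. The call of IGF2BP2 against the empty vector was also lost with quantile normalization, the fit of all 9 libraries and the per-gene test, and that of HMGA1 with the per-gene test.

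Over all genes, the 359 calls in hPRM2 became 9 (per-gene test) to 2429 (without hPRM2 replicate 1), with 89 without a filter, 167 with a minimum of 10, 2125 in the fit of all 9 libraries, and 12 to 41 without an empty vector library. Without hPRM2 replicates 2 and 3 they were 27 and 84. The 10241 calls of the libraries labelled hPRM1 became 5837 with a minimum of 10 and 4514 in the per-gene test, and the 6234 calls against hPRM2 became 3750 and 219. There, median-of-ratios rescaling turned 4355 lower and 1879 higher genes into 2148 and 3662. Libraries with the same replicate number showed little common deviation from their group means (r of −0.08 to 0.11). With 3 libraries per group, this cannot tell whether they shared a culture or a preparation. With the replicate block, 0, 6 and 5 members were called, and 57, 10334 and 5816 genes in all. Rescaling moved 10 of 21 group means of members by more than their SD, and ranking by Spearman's rho gave largely other likest genes.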
